A study of Mus musculus with 14 samples.

Results

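The genes described here are Trp63, which encodes the transcription factor p63, the 4 keratin genes Krt5, Krt14, Krt15 and Krt17, and Id4. Members were the probes whose annotation gives 1 of these symbols. Each of the 6 genes had 1 probe with a value on all 14 arrays, of 16879 genes in all. The samples were 12 mammary tumours from mice with 1 mutated copy of Brg1 (Brg1+/-), which encodes the motor subunit of SWI/SNF, a complex that moves nucleosomes. T172 and T284 had a second array marked as a biological repeat, and the other 10 tumours had 1 array each. All tumours had the same genotype, so the data hold no wild-type tumour and no normal mammary gland, and comparisons run between tumours. The sources used here give no strain, age or treatment of the mice, and the labels carry the word MIXED without explaining it. They do not say whether each tumour came from its own mouse.

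Each array compared tumour RNA with a common mouse reference RNA. A value is the log2 ratio of tumour over reference, so a difference of 1 between tumours is a doubling. The ratio says nothing of how bright a probe was, so levels of different genes were not set against each other, only the way each varied over the tumours. A gene was called when limma's moderated F-test between tumours gave an adjusted p under 0.05, with p-values adjusted over all genes by the method of Benjamini and Hochberg. The error in this test rests on the repeat arrays of T172 and T284, and the other tumours are assumed to vary alike. In bulk tumours, fewer cells of a type and less RNA per cell cannot be told apart.

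In stratified and glandular epithelia p63 is the factor that keeps the basal layer, the cells that touch the basement membrane. Krt5 and Krt14 pair into the intermediate filaments of basal cells, in the mammary gland chiefly the myoepithelial layer. Krt15 is a type I keratin of basal keratinocytes and hair follicle stem cells, and Krt17 is a type I keratin of skin appendages that is switched on by injury and in tumours. Id4 is a helix-loop-helix protein without a DNA-binding part that holds back E proteins, and in the mammary gland it is known from basal cells. In tumours, this set of genes is used as a sign of basal or squamous character.

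Trp63 was among the most variable genes of the tumours and its values fell into 3 levels. T221 had a log2 ratio of 3.57, T2023 of 3.21, T135 of 2.41, T372 of 2.17 and T920 of 1.89. In T160 it stood at -0.39, in T2134 at -0.52 and in T55 at -0.86. T284 had -2.63, T176 -2.69, T646 -2.96 and T172 -3.15. Hence 5 tumours lay above the reference and 7 below it, and the highest and the lowest were 6.72 apart. The 2 arrays of T172 read -3.18 and -3.12 and those of T284 -2.87 and -2.38, so the repeats stayed within the lowest level.

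Over tumours the SD of Trp63 was 2.54 (n = 12), more than that of 99.8% of genes, against a within-tumour SD of 0.300 (from the repeat arrays, moderated by limma over all genes). The median gene had an SD of 0.386 over tumours. The step from T920 down to T160 was 2.28 ± 0.42 (SE, limma adjusted p = 0.0166, adjusted over all genes and all 66 pairs of tumours). The step from T55 down to T284 was 1.77 ± 0.37 (SE, limma adjusted p = 0.0273). No other pair of neighbours in the order differed at the threshold. The probe's place in the transcript is not given in the sources used here, so which p63 isoforms it reads is not known.

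All 6 genes were called between tumours by the limma F-test, where 18.4% of all genes tested were. The adjusted p was 0.00572 for Krt15 and between 5.6e-05 and 0.000339 for the other 5. Without T2023 the adjusted p of Krt15 was 0.0535, and the other 5 genes were still called. Of the 66 pairs of tumours, 47 differed in Trp63, 39 in Krt17, 38 in Krt14, 37 in Krt5, 35 in Id4 and 16 in Krt15. That is 53.5% of the 396 combinations of a gene and a pair, where 4.43% of such combinations over all genes were called. The genes were chosen with earlier results of these data known, so these shares describe them and do not test the choice.

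**Figure D1:**
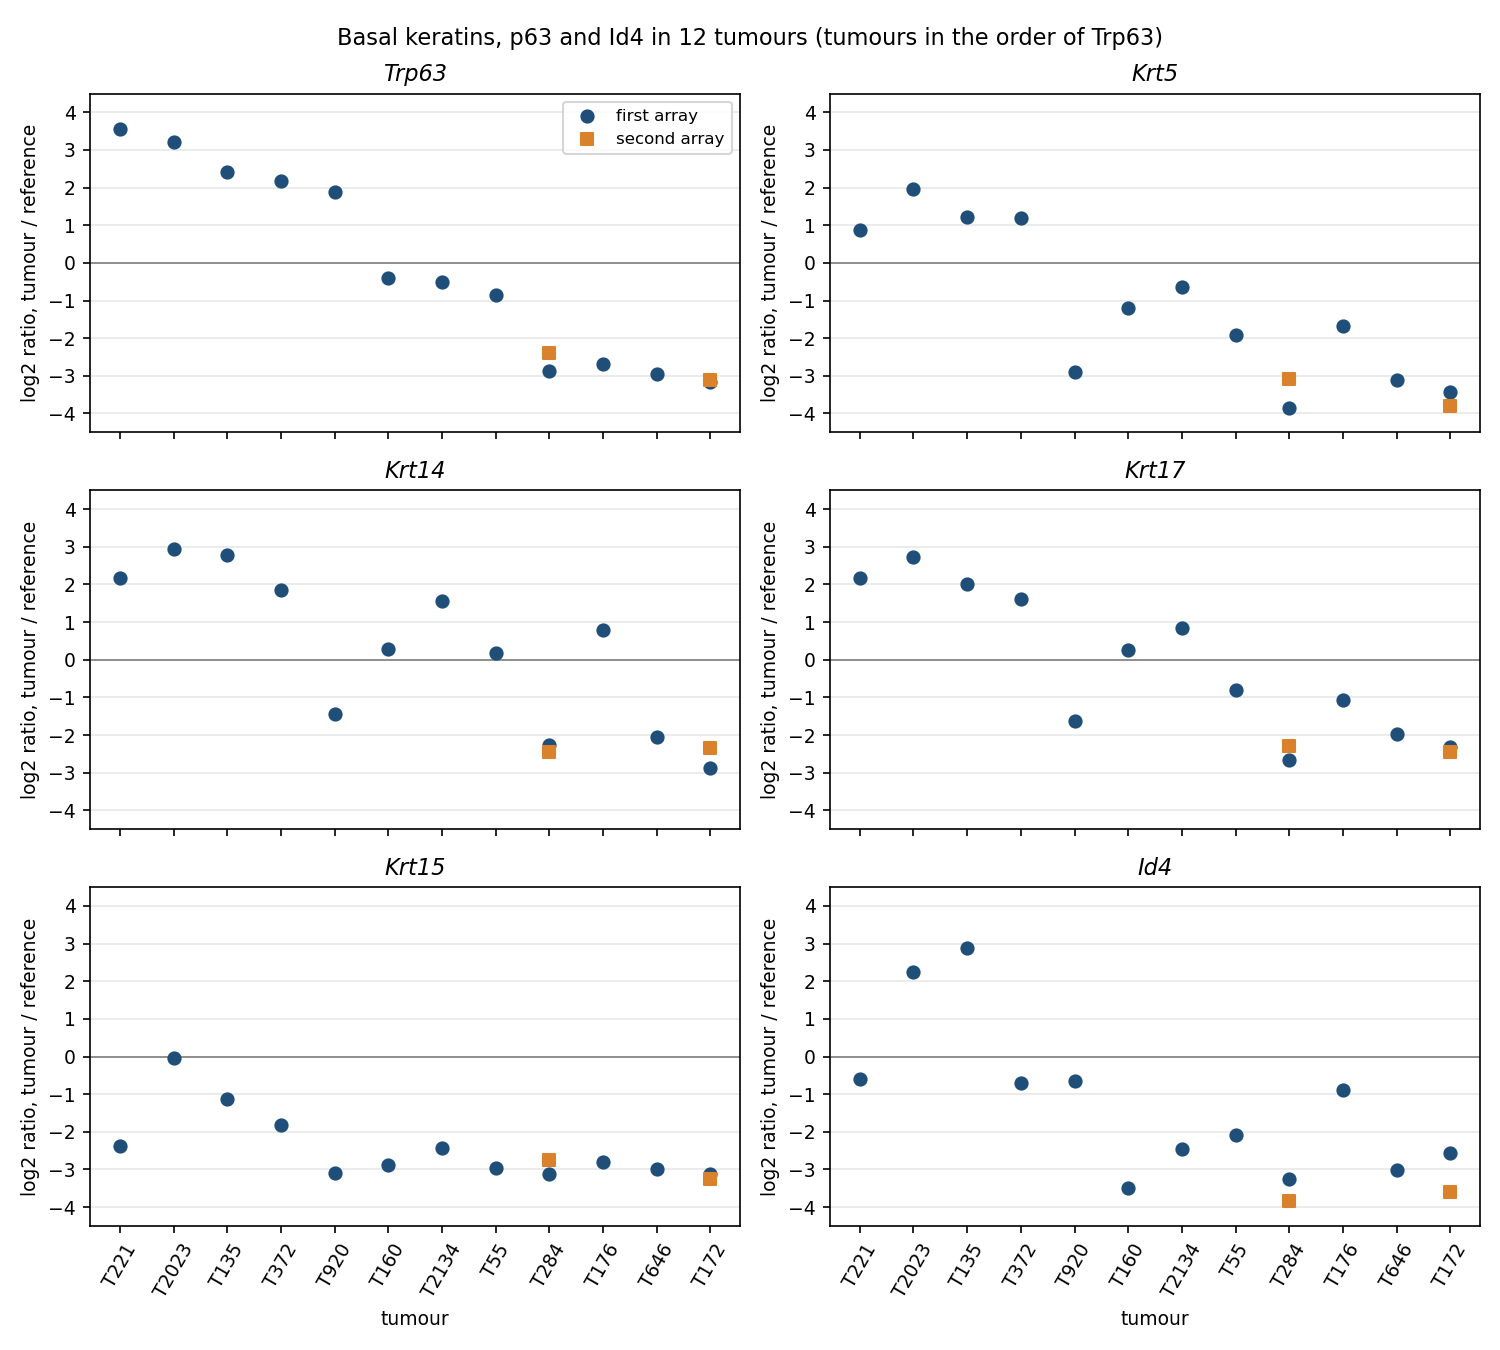
Log2 ratio of tumour over reference (vertical axis) of each of the 6 genes in the 12 tumours (horizontal axis). Tumours run from the highest to the lowest Trp63, and each point is 1 array, with squares for the second arrays of T172 and T284. Trp63 falls in steps from 3.57 to -3.15, T920 is low in the keratins beside tumours that are high, and Id4 is above 0 in T135 and T2023 only.

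**Figure D2:**
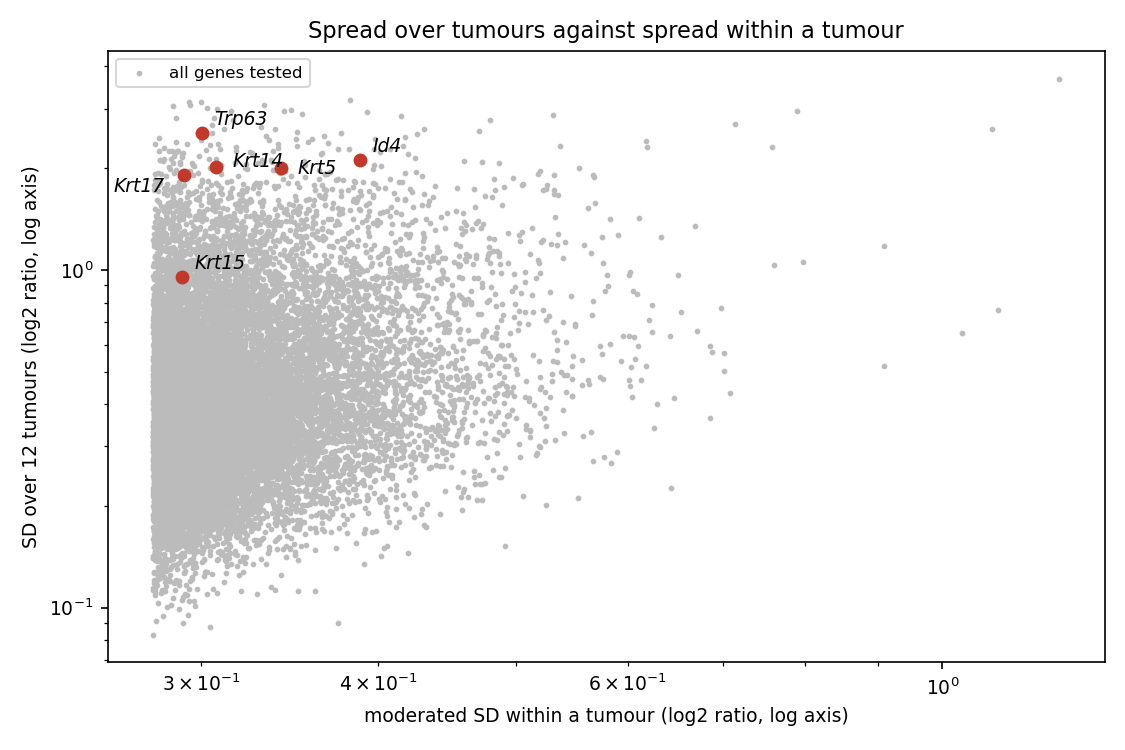
Moderated within-tumour SD (horizontal axis, log2 units, log scale) against SD over the 12 tumours (vertical axis, log2 units, log scale) for all genes tested, with the 6 genes marked. The 6 genes have within-tumour SDs between 0.291 and 0.388 and lie above the mass of genes in SD over tumours, Krt15 the lowest of them at 0.95.

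Krt5, the type II partner of Krt14, was above the reference in 4 tumours. The log2 ratio was 1.96 in T2023, 1.21 in T135, 1.19 in T372 and 0.89 in T221. It was -0.65 in T2134, -1.20 in T160, -1.67 in T176 and -1.92 in T55. The lowest values were -2.90 in T920, -3.12 in T646, -3.47 in T284 and -3.61 in T172. The SD over tumours was 2.01 (n = 12) and the within-tumour SD 0.341. The 4 tumours above the reference are the first 4 in the order of Trp63, and T920, the fifth for Trp63, was ninth for Krt5. The values ran down without a called break, since the widest gap between neighbours, 1.53 from T221 to T2134, had a limma adjusted p of 0.136.

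Krt14 was above the reference in 8 of the 12 tumours. It stood at 2.93 in T2023, 2.79 in T135, 2.17 in T221, 1.84 in T372 and 1.57 in T2134. In the middle were T176 at 0.78, T160 at 0.28 and T55 at 0.18. T920 had -1.44, T646 -2.04, T284 -2.35 and T172 -2.60. The same 4 tumours closed the order of Krt5 and of Krt14. The gap from T55 to T920 was 1.62, with a limma adjusted p of 0.0783. The repeat arrays of T172 differed by 0.54 and those of T284 by 0.18.

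Krt17 was above the reference in 6 tumours, at 2.73 in T2023, 2.17 in T221, 2.02 in T135, 1.62 in T372, 0.85 in T2134 and 0.25 in T160. It was below it at -0.82 in T55, -1.07 in T176, -1.64 in T920, -1.98 in T646, -2.40 in T172 and -2.48 in T284. T2023 was highest for all 4 keratins.

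Krt15 stayed below the reference in all 12 tumours and varied least of the 6 genes. T2023 had -0.05, T135 -1.13 and T372 -1.82. The other 9 tumours lay between -2.38 in T221 and -3.19 in T172. The SD over tumours was 0.95 (n = 12), and the 3.14 between the extremes came largely from T2023 and T135. Against the mean of the other 11 tumours, T2023 was 2.55 ± 0.61 higher (SE, limma adjusted p = 0.405). With T135 left out the adjusted p of that difference was 0.0443. Over the 6 genes and 12 tumours, 0 of 72 such differences had a limma adjusted p under 0.05. Such calls were rare for all genes, at 797 over the 16877 genes tested and the 12 tumours. A count of 0 therefore says little about these 6 genes. The error in these comparisons comes from the spread between tumours, and the lone tumour is assumed to vary like the other 11.

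The 4 keratins followed each other closely from tumour to tumour. Krt5 and Krt17 had a Pearson r of 0.987 and a Spearman rho of 0.965 over the 12 tumours, and r was 0.980 without the 2 tumours farthest from the median. Krt5 and Krt14, the filament partners, had r = 0.962 and rho = 0.986 (r = 0.946 without 2 tumours). Krt14 and Krt17 had r = 0.957 and rho = 0.965 (r = 0.938 without 2 tumours). Krt15 followed the other 3 with r between 0.779 and 0.855 and rho between 0.874 and 0.944 (r between 0.788 and 0.909 without 2 tumours).

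All 6 keratin pairs passed a permutation test of r with 100000 resamples, with p-values adjusted over the 15 pairs of the 6 genes. The adjusted p was 0.0021 for Krt14 with Krt15 and at most 6e-05 for the other 5 pairs. The same test of rho gave adjusted p between 5e-05 and 0.00095. The smallest p these permutations can give is 1e-05. No pair of tumours had 2 keratins called in opposite directions. Krt5 and Krt17 were both called in 34 pairs of tumours, Krt14 and Krt17 in 33 and Krt5 and Krt14 in 32, always in the same direction.

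Where Trp63 and a keratin were both called in a pair of tumours, they mostly ran in the same direction, but T920 stood apart. Since the values of Trp63 fall into 3 levels with fewer than 6 tumours each, no pooled correlation with the keratins or with gene list scores is reported, although such pairs count in the adjustment of the p-values. Of the 66 pairs of tumours, Trp63 and Krt17 were both called in 35, of which 33 ran in the same direction and 2 in opposite directions. Trp63 and Krt14 were both called in 31 pairs, 29 of them in the same direction. For Trp63 and Krt5 the counts were 31 and 30, and for Trp63 and Krt15 they were 12 and 12.

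T920 had high Trp63 with low keratins. It differed from T372, next to it in the order of Trp63, by 0.28 in Trp63 (T372 higher, limma adjusted p = 0.883). In Krt5 T372 was 4.09 higher than T920 (limma adjusted p = 0.00172), in Krt14 3.28 higher (0.00307) and in Krt17 3.26 higher (0.00246). T920 and T646 differed the other way round: T920 was 4.85 higher in Trp63 (limma adjusted p = 0.000424), while T646 lay below T920 by 0.22 in Krt5, 0.60 in Krt14 and 0.35 in Krt17 (limma adjusted p = 0.931, 0.631 and 0.829). T920 therefore sat with the tumours of high Trp63 for one gene and with the tumours of low keratin for the others.

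All 5 called cases in which Trp63 and a keratin ran in opposite directions involved T920. T2134 was lower than T920 in Trp63, at -0.52 against 1.89, and higher by 2.25 in Krt5, 3.01 in Krt14 and 2.48 in Krt17 (limma adjusted p = 0.0129 for Trp63, and 0.0313, 0.00472 and 0.00953 for the keratins). T176 was lower than T920 in Trp63, at -2.69 against 1.89, and 2.22 higher in Krt14 (limma adjusted p = 0.000543 and 0.0209). T160 was lower in Trp63, at -0.39, and 1.89 higher in Krt17 (limma adjusted p = 0.0166 and 0.0343). The count was 2 without T2134 and 0 without T920, and 0 at an adjusted p under 0.01.

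T176 stood on the other side for Krt14. Its Trp63 differed from that of T284 by 0.06 (T284 higher, limma adjusted p = 0.981). Its Krt14 was 3.13 higher than in T284 (limma adjusted p = 0.0019) and its Krt5 1.80 higher (limma adjusted p = 0.044). Against T646, with Trp63 0.28 lower (limma adjusted p = 0.885), Krt14 was 2.82 higher in T176 (limma adjusted p = 0.00655). There Krt5 was 1.45 and Krt17 0.92 higher, neither passing the threshold (limma adjusted p = 0.161 and 0.338). Taking each gene relative to its own mean over tumours, Trp63 minus the mean of Krt5, Krt14 and Krt17 was 3.60 in T920, 1.55 in T221, -1.39 in T2134 and -2.31 in T176, and between -0.86 and 0.38 in the other 8 tumours.

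**Figure D3:**
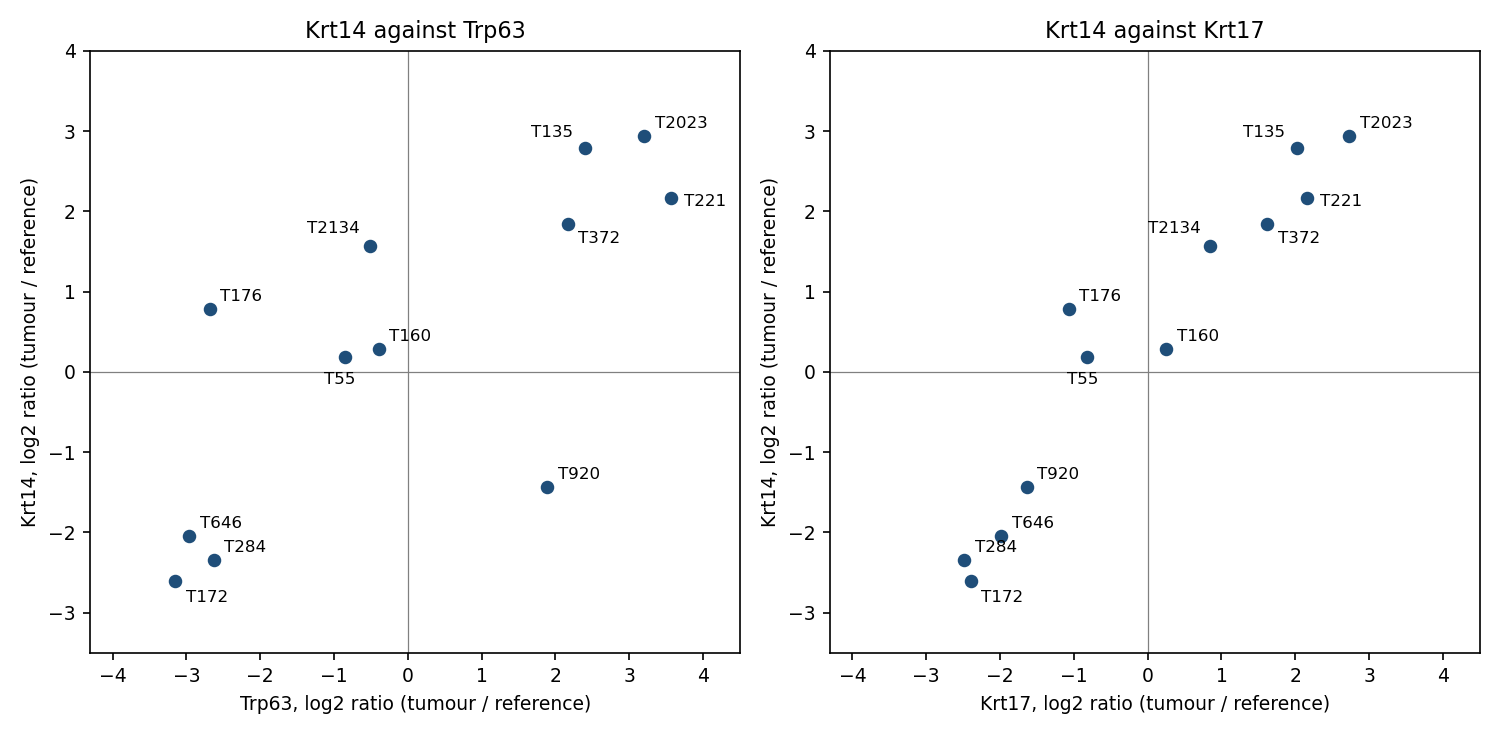
Log2 ratio of Krt14 (vertical axes) against that of Trp63 (left) and of Krt17 (right) in the 12 tumours, 1 point each, with the mean of both arrays for T172 and T284. Krt14 and Krt17 lie near a line, while T920 (Trp63 1.89, Krt14 -1.44) and T176 (Trp63 -2.69, Krt14 0.78) leave the run of Krt14 with Trp63.

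Id4 was above the reference in 2 tumours only, T135 at 2.87 and T2023 at 2.23. In T221 it was -0.60, in T920 -0.65, in T372 -0.70 and in T176 -0.88. The lower values were -2.09 in T55, -2.44 in T2134, -3.01 in T646, -3.08 in T172, -3.49 in T160 and -3.55 in T284. The step from T2023 down to T221 was 2.84 ± 0.55 (SE, limma adjusted p = 0.0197), and no other pair of neighbours differed at the threshold. Its repeat arrays lay farther apart than those of the other 5 genes in T172, with a difference of 1.02.

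Both tumours of high Id4 had high Trp63 and high keratins, but T221 and T372 had those too, with Id4 below the reference. T160 and T176 differed in opposite directions, with Trp63 2.29 higher in T160 (limma adjusted p = 0.0162) and Id4 2.61 higher in T176 (limma adjusted p = 0.0289). Over the 12 tumours Id4 had r between 0.709 and 0.837 with the 4 keratins (permutation test, adjusted p between 0.00362 and 0.00819). There rho lay between 0.629 and 0.790 (permutation test, adjusted p between 0.00474 and 0.0315). The 10 tumours below the step are a group cut on Id4's own values, which narrows its range. Among them Id4 correlated with the keratins with r between 0.492 and 0.578. Of these 4 pairs, 0 passed a permutation test of r (adjusted p = 0.147 for each). Their rho lay between 0.370 and 0.648 (permutation test, adjusted p between 0.128 and 0.297), and r between 0.521 and 0.697 without T221 and T920. All 16 pairs of tumours that differed in Krt15 also differed in Id4, in the same direction. Each of these 16 pairs holds T2023 or T135.

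The 250 bases before the listed start of Krt5 and of Id4 are shown because, of the 6 genes, these had a usable window in the RefSeq table. Both genes were called in 25 pairs of tumours, always in the same direction, and their windows hold different motifs. The sequences are RefSeq's on GRCm38.p6, read 5′ to 3′ on the gene's strand, at chr15:101712906-101713155 (minus strand) for Krt5 and chr13:48260866-48261115 (plus strand) for Id4. Capitals mark every match, on either strand, to the motifs searched.
Krt5: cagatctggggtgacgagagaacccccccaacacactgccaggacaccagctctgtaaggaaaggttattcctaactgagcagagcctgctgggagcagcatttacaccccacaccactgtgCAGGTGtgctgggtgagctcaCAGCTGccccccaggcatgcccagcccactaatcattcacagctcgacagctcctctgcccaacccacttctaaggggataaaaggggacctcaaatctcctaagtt
Id4: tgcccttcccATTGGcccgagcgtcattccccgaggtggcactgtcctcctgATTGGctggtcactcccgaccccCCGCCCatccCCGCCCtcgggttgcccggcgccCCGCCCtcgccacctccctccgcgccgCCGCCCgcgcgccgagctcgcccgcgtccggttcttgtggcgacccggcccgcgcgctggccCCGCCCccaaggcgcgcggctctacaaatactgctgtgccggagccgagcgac
The capitals in Krt5 are E-boxes and those in Id4 are GC boxes and CCAAT boxes.

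The E-box is the site of basic helix-loop-helix factors, the partners that Id proteins hold back. The motifs searched on both strands were the TATA box (TATAAA), the E-box (CANNTG), the GC box (GGGCGG), the CCAAT box, the AP-1 site (TGANTCA) and the core of the p53-family site. The Krt5 window had 2 E-boxes, which begin 128 and 107 bases before the start, and no match to the others. The Id4 window had 5 GC boxes and 2 CCAAT boxes and no match to the others. No matches overlapped. E-boxes stood in 66.2% of the 32851 RefSeq windows of this length, GC boxes in 32.7%, CCAAT boxes in 33.8%, TATA boxes in 12.4%, AP-1 sites in 6.7% and the p53-family core in 5.8%. The Id4 window was 75.6% G and C, a higher share than in 96.4% of windows, and held 35 CpG. The Krt5 window was 56.0% G and C and held 2 CpG. A match is only these letters in the window, and the arrays did not measure binding.

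Next to Krt5, Krt14 and Krt17 in the genome lie other keratin genes, of which Krt16, Krt6b and Krt71 ran with the members beside them. Krt16, between Krt14 and Krt17 on chromosome 11 and known from hyperproliferative epidermis, had r = 0.943 with Krt14 and 0.916 with Krt17 over the 12 tumours (permutation test, adjusted p = 0.00033 and 0.000403 over 11 pairs of neighbours). Krt16 was highest in T372 at 4.64 and lowest in T920 at -1.44. Krt6b, next to Krt5 on chromosome 15, had r = 0.902 with Krt5 (adjusted p = 0.00033, permutation test), and Krt71, a keratin of the hair follicle's inner root sheath, had r = 0.749 (adjusted p = 0.0022, permutation test). The rho of these 4 pairs lay between 0.874 and 0.944 (permutation test, adjusted p between 0.00011 and 0.00124), and r without the 2 tumours farthest from the median between 0.699 and 0.914.

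Neighbourhood did not go with likeness throughout. Krt19, a keratin of simple and luminal epithelium that lies between Krt15 and Krt14, had r = -0.07 with Krt15 and 0.248 with Krt14 (permutation test, adjusted p = 0.84 and 0.594). Krt19 was highest in T2134 at 2.72 and lowest in T176 at -4.12. Krt42, beyond Krt17, had r = -0.11 with Krt17 and -0.10 with Krt14 (permutation test, adjusted p = 0.84 for each) and was not called between tumours (limma adjusted p = 0.077). Krt15 with Krt13, Krt35 and Krt36 had r of 0.630, 0.469 and 0.453, and 0 of the 3 passed the permutation test (adjusted p = 0.059, 0.166 and 0.166). By rho, 0 of these 7 pairs passed either, with the lowest adjusted p at 0.0944.

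**Figure D4:**
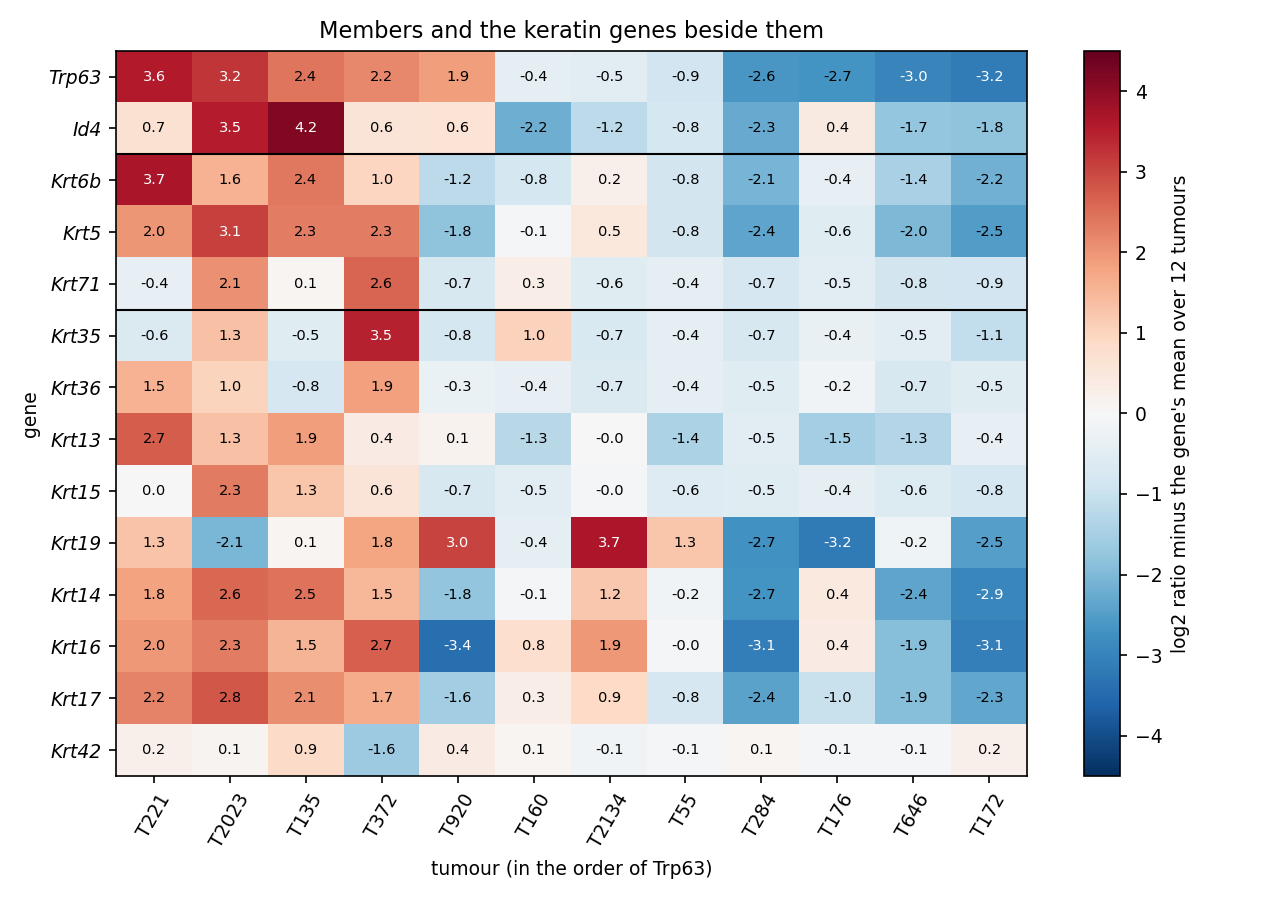
Heat map of the log2 ratio relative to each gene's mean over tumours (colour) for Trp63, Id4, the 4 keratins and the keratin genes measured beside them (rows) in the 12 tumours (columns, from the highest to the lowest Trp63). Krt5, Krt14, Krt16, Krt17 and Krt6b share their high and low tumours and are low in T920, while Krt19 and Krt42 follow another pattern.

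The 5 genes whose values over the 12 tumours were most like those of a keratin included 3 of the cornified envelope list for Krt5, 2 for Krt14, 2 for Krt17 and 1 for Krt15. Likeness was Pearson's r among the 1314 genes that had a value on every array and an SD of 1 or more. For Krt5 the 5 leading genes were Sprr1a, Sprr2d, Calm4, Teddm3 and Sprr2h, with r between 0.967 and 0.977. For Krt17 they were Sprr1a, Clic3, Scel, Cnfn and Sprr2h, with r between 0.967 and 0.982. The Sprr genes encode small proline-rich precursors of the cornified envelope, and Scel and Cnfn encode the envelope proteins sciellin and cornifelin. For Krt14 they were Sprr2d, Klf4, Anxa8, Calm4 and Krt16, with r between 0.943 and 0.958, of which Klf4 is a transcription factor of skin barrier formation. For Krt15 they were Ivl, which encodes the envelope protein involucrin, Rhcg, Tex36, Piwil2 and Mill1, with r between 0.899 and 0.927.

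The 5 genes most like Trp63 held none of that list. They were Cbr2, a carbonyl reductase, at r = 0.983, Trim29, a tripartite motif protein of basal and squamous epithelium, at 0.981, Ism1 and Edn1 at 0.954 and Lgals7, which encodes galectin-7, at 0.918. In T920, Trim29 stood at 0.91, against -0.24 or less in the 7 tumours of lower Trp63, and Edn1 at 1.26, against 0.39 or less. Ism1 and Cbr2 were also higher in T920 than in those 7 tumours. Lgals7 was not, at -0.47 in T920 against -0.13 in T55. The cornified-layer gene Sprr1a stood at -0.94 in T920, against 3.34 or more in the other 4 tumours of high Trp63. All these genes were chosen by likeness over the same tumours, T920 included. Their values in T920 are therefore no separate support for how it stood apart. Id4 was most like Jag2, a Notch ligand, at r = 0.920, Fam180a, Ivl, Art4 and Cldn11, with r of 0.872 or more. At r of 0.9 or more there were 54 genes for Krt17, 49 for Krt5, 25 for Krt14, 9 for Trp63, 4 for Krt15 and 2 for Id4. The 12 points are the same libraries for every gene, and these ranks are a description.

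Of 18 lists of pathway and cell type genes, 3 had scores that followed all 4 keratins. A score is the mean over the list's measured genes of the log2 ratio relative to each gene's mean over tumours. Over the 12 tumours the cornified envelope score had r between 0.79 and 0.97 and rho between 0.92 and 0.94 with the keratins, the score of activated and suprabasal keratins r between 0.75 and 0.95 and rho between 0.87 and 0.96, and the score of basal adhesion genes r between 0.74 and 0.86 and rho between 0.64 and 0.78. Without the 2 tumours farthest from the median the ranges of r were 0.86 to 0.97, 0.80 to 0.96 and 0.63 to 0.77. Permutation tests of r gave adjusted p of at most 0.00723, 0.0223 and 0.0354 over 108 pairs of a gene and a list. Tests of rho gave adjusted p of at most 0.00139, 0.00486 and 0.1, so not every keratin passed with basal adhesion genes by rho. In all, 17 of the 72 pairs of a keratin and a list passed, and 10 without T2023. The cornified envelope list kept all 4 keratins without T2023, activated and suprabasal keratins 3, and basal adhesion genes 2. With Trp63 these 3 scores had r of 0.80, 0.78 and 0.91 (permutation test, adjusted p = 0.0201, 0.0201 and 0.0013). Their rho with Trp63 was 0.80, 0.76 and 0.87 (permutation test, adjusted p = 0.0246, 0.0359 and 0.00486).

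All 18 of 18 cornified envelope genes were called between tumours, with a median SD over tumours of 2.25. Crct1 ran from -5.44 in T920 to 2.65 in T372, and Sprr2d, a small proline-rich protein, from -3.32 in T920 to 4.20 in T372. The score ran from -2.42 in T172 to 3.20 in T221 and was -2.40 in T920. T920 thus joined T172 at the low end for cornified genes as it did for Krt5 and Krt14.

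Of the activated and suprabasal keratins 8 of 10 measured genes were called, among them Krt16 and Krt10. Krt10, the keratin of the first suprabasal layer, was lowest in T920 at -5.83 and highest in T2023 at 1.25. Among basal adhesion genes 8 of 13 were called. Pkp1, the desmosome protein plakophilin 1, ran from -3.43 in T284 to 3.16 in T2023, and Col17a1, a hemidesmosome collagen, from -1.78 in T284 to 2.83 in T2023.

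Genes linked to p63 in the literature had a score that passed the test of r with Trp63 but with 0 of the 4 keratins. Of 18 measured, 12 were called between tumours, with a median SD of 1.01. Perp, a desmosomal target of the p53 family, ran from -2.06 in T176 to 3.40 in T2023, and Tfap2c, a transcription factor of epithelial lineages, from -2.24 in T176 to 4.78 in T920. The list's score had r between 0.37 and 0.64 and rho between 0.45 and 0.50 with the 4 keratins (permutation test, adjusted p between 0.108 and 0.536 for r and between 0.299 and 0.368 for rho). With Trp63 the score had r = 0.74 (permutation test, adjusted p = 0.0201), and r = 0.60 without T2023 and T221. The rho with Trp63 was 0.71 and did not pass (permutation test, adjusted p = 0.055). Whether this list differs from the 3 lists that passed with all 4 keratins was not tested. In the 5 tumours with Trp63 above the reference the score was 0.44 in T221, 0.61 in T2023, 0.43 in T135, 0.28 in T372 and 0.03 in T920. In the other 7 tumours it lay between -0.95 in T176 and -0.02 in T284, so its sign was that of Trp63 in all 12. The sign says little in T920, T284 and T172, where the score was 0.03, -0.02 and -0.03 although Trp63 differed widely. Tfap2c did not follow Trp63 throughout, at 4.44 in T284 and 4.05 in T172 against 2.96 in T221 and 2.44 in T372.

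Of 5 measured genes of the p53 family and its regulators 1 was called, where 18.4% of all genes tested were. It was Sfn, which encodes the 14-3-3 sigma protein of epithelial cells. It ran from -0.97 in T172 to 3.10 in T221. Trp73, the other p63 relative measured, had an SD over tumours of 0.20 and was not called (limma adjusted p = 0.937). The list's score passed the permutation test with Krt5, Krt15 and Krt17 (r = 0.82, 0.84 and 0.81), and of the keratins with Krt15 alone without T2023. With Trp63 it had r = 0.88 and rho = 0.89 (permutation tests, adjusted p = 0.00202 and 0.00216). The rho of the 4 keratins lay between 0.64 and 0.78 (permutation test, adjusted p between 0.0349 and 0.0995). Sfn had an SD over tumours of 1.41 and the other measured genes of the list 0.20 to 0.59. The score therefore leans on Sfn and does not show that the list as a whole followed the keratins.

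Of the other Id genes and the E proteins 3 of 6 were called. Id1 ran from -4.42 in T284 to 0.51 in T221 and Id3 from -1.90 in T284 to 2.44 in T176, unlike Id4, which was highest in T135. The third called gene, the E protein gene Tcf4 (limma adjusted p = 0.00128), ran from -3.25 in T284 to 0.76 in T2023. It was above the reference only there and in T135, at 0.15, the 2 tumours of high Id4. Id2 was not called (limma adjusted p = 0.0596). The score had r between 0.58 and 0.70 and rho between 0.66 and 0.73 with the keratins (permutation test, adjusted p between 0.0525 and 0.144 for r and between 0.0463 and 0.0927 for rho).

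Contractile genes of myoepithelial cells, the cells that carry Krt5 and Krt14 in the normal gland, had a score that passed the test with 0 of the 4 keratins. Of 12 measured, 6 were called, with a median SD of 0.54. Acta2, smooth muscle actin, lay below the reference in every tumour, between -3.39 in T2134 and -1.86 in T920, and was not called (limma adjusted p = 0.333). Cnn1, calponin, ran from -5.14 in T172 to -0.96 in T221. Tagln, also called (limma adjusted p = 0.00158), ran from -3.19 in T176 to 0.26 in T221. Cnn1 was highest in T221, T135, T2023 and T920, at -1.69 or more, all with Trp63 above the reference. In T372, the other tumour with Trp63 above it, Cnn1 was -3.645. Tagln was -0.03 in T135 and -0.85 in T2023, but -1.37 in T372 and -2.13 in T920. The score had r between 0.07 and 0.21 and rho between -0.05 and 0.15 with the keratins (permutation test, adjusted p of 0.873 or more for r and 0.799 or more for rho). Called genes of this list ran in different directions. Lmod1 and Smtn were highest in T172, at 2.27 and 0.97, where Cnn1 and Myh11 were lowest. Mme was highest in T284, at 1.40. The score averages over them and does not show how single contractile genes went with the keratins. The difference between this list and the cornified envelope list was not tested.

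As a check of the tissue, the keratins Krt8 and Krt18 of simple epithelium and Epcam, a surface protein of epithelial cells, were above the reference in most tumours but not in T176. Krt18 lay between 1.14 and 2.96 in 11 tumours and at -4.25 in T176, and Epcam between 0.70 and 3.18 and at -4.09. Krt8 was also below the reference in T221, at -0.45. T176 had the lowest luminal score, -2.51, and the highest fibroblast matrix score, 1.93, and there Krt14 was 0.78, the sixth highest value. Luminal and simple keratin scores passed with 0 of the 4 keratins (r between -0.08 and 0.21, permutation test, adjusted p of 0.891 or more for r and 0.518 or more for rho).

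Markers of other cells moved with the tumours too, and their part in the values of the 6 genes was not tested. Of hair follicle genes 11 of 12 measured were called, and their score ran from -1.54 in T284 to 3.90 in T372, where Krt28 reached 4.25 and Krt27 4.60. It passed with Krt5 (r = 0.71) and Krt17 (r = 0.68), rho of the 4 keratins lying between 0.63 and 0.77 (permutation test, adjusted p between 0.0349 and 0.1), and with neither keratin without T2023. All 12 of 12 fibroblast matrix genes, 7 of 9 macrophage genes, 5 of 11 lymphocyte genes, 3 of 11 endothelial genes, 5 of 9 adipocyte genes, 4 of 10 skeletal muscle genes, 2 of 3 Schwann cell genes and 9 of 10 milk genes were called between tumours. None of these 8 scores passed the permutation test with a keratin, the lowest adjusted p being 0.405 for r and 0.493 for rho. Their scores ran from -1.39 to 1.93 for fibroblast, -1.17 to 1.32 for macrophage, -0.58 to 1.25 for lymphocyte, -0.54 to 0.81 for endothelial, -0.51 to 1.30 for adipocyte, -0.73 to 1.92 for skeletal muscle, -1.71 to 1.20 for Schwann cell and -2.34 to 2.08 for milk genes.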

How the data were processed

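Tumour RNA, extracted with a Qiagen RNeasy kit, was in Cy5 and the common mouse reference in Cy3 on every array, per the labels. The deposited values are on a log2 scale and were read as tumour over reference from the dyes. The base was inferred from their range, -9.19 to 7.42. Array medians lay between 0 and 0.018, so arrays look centred. The sources used here name no scanner, background correction or normalization. Over all probes, r between any pair of arrays was 0.465 to 0.898.

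Of 22575 probes, 18658 had 1 gene symbol in the platform annotation, which can be old, and were updated through RefSeq (GRCm38.p6), giving 16879 genes. Probes of a gene were averaged. The 16877 genes with values on at least 12 of 14 arrays were fitted with limma 3.58.1 in R 4.3.3, 1 coefficient per tumour. Differences between tumours were adjusted over all genes and pairs. Each array held 22501 to 22566 values, and the number of arrays limits the precision. The p-values of the F-test and of differences between pairs of tumours rest on the spread between repeat arrays, whose kind the labels do not explain. Comparisons of a lone tumour with all the others take their error from the spread between tumours instead. Their calls and those of the pairs therefore rest on different errors. Permutation p-values use neither error.

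Correlations used the 12 tumour means and 100000 permutations, two-sided (scipy 1.17.1). The code was tested on simulated data. The 6 genes, the 18 lists and the rules were chosen with earlier results of these data known. Text names the 6 genes, the 5 genes most like each, up to 2 called genes with the largest SD per list and measured keratin neighbours within 3 genes. Trp73, Acta2, Krt8, Krt18, Id2, Tcf4, Lmod1, Smtn, Mme and Myh11 were named after their values were seen. Upstream windows of Trp63, Krt14, Krt15 and Krt17 were not used here.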

Additional observations from a re-analysis of the deposited data

How the results depend on the processing

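The alternatives were quantile normalization, 1 probe per gene, values on all 14 arrays, a robust prior, an adjusted p under 0.01, and leaving out each repeat array or each tumour. Of the 270 values recomputed under them, 263 stayed on their side of the threshold or, for counts, equalled or lay within 1.5 times of the main count. With a tumour left out, counts of pairs rest on 55 pairs of tumours instead of 66. The number of genes called was 1590 at an adjusted p under 0.01, 3182 to 4076 with a repeat array left out and 2520 to 3926 with a tumour left out, against 3104. All 6 genes were called under every alternative except without T2023, where Krt15 had a limma adjusted p of 0.0535. Leaving out tumours gave 0 to 1 of the 6 genes called in one tumour against the rest, the 1 being Krt15 in T2023 without T135. It gave 10 to 22 correlations of keratins with list scores, against 17, and the 10 came without T2023. It gave 0 to 6 cases of Trp63 and a keratin called in opposite directions, against 5, with 2 without T2134 and 0 without T920, and the count was 0 at an adjusted p under 0.01. The cause of these changes was not tested. The 6 keratin pairs passed under all alternatives run for them.

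No paired analysis was possible because only T172 and T284 have a second array. The files give ratios without signal values, so how far a probe stood above background is not known.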
